A study of Mus musculus with 14 samples.

Results

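Aminoacyl-tRNA synthetases and 2 scaffold proteins of their complex were followed in sorted mouse heart muscle cells. The members were taken by gene symbol from the count table, and all 38 symbols had a row among its 23337 genes. They comprise 18 cytosolic enzymes, 2 enzymes that serve both the cytosol and mitochondria (Gars for glycine and Kars for lysine), 16 mitochondrial enzymes, whose symbols end in 2, and the scaffold proteins Aimp1 and Aimp2. Aimp2 also ends in 2 but belongs to the cytosolic complex, so it was kept apart from the mitochondrial enzymes. All 38 passed the filter on low counts, with at least 17 reads in every library (the lowest was for Pars2), as did 11170 genes in all.

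The study compared cardiomyocytes from Rosa-Cas9GFP mice, which bring Cas9 and a green fluorescent protein, after injection of an adeno-associated virus on postnatal day 1. The gRNA group (n = 7) received AAV-Ryr2gRNA, a virus named for a guide RNA against the ryanodine receptor gene Ryr2. The control group (n = 7) received AAV-Cre, named for the recombinase, so the Rosa-Cas9GFP line and an AAV were common to both groups. The labels do not say whether AAV-Ryr2gRNA holds Cre as well, or what drives the guide. The cells were isolated at 4 weeks of age by Langendorff perfusion and sorted by FACS, and poly(A) RNA was made into SMART-Seq v4 and Nextera XT libraries. No label ties a sample to an animal, so the p-values rest on the spread over numbered samples, part of which may be technical.

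Most synthetases join 1 kind of amino acid to its tRNA, the step that feeds protein synthesis, while Eprs serves both glutamate and proline. Cytosolic and mitochondrial ribosomes draw on separate sets of charged tRNAs, and in most cases on enzymes from separate nuclear genes, of which the mitochondrial set serves the few subunits of the respiratory chain made inside the organelle. In the cytosol several synthetases are held together with the scaffold proteins Aimp1, Aimp2 and Eef1e1 in the multisynthetase complex. Many cytosolic synthetase genes are known targets of ATF4, the transcription factor of the amino acid and integrated stress response, which binds with C/EBP partners to a composite element. In heart muscle, where mitochondria fill much of the cell, variants of several mitochondrial synthetases cause cardiomyopathy.

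The element was looked for in the promoters because the cytosolic members moved together. The core searched was TGATGNAA on both strands, in the 250 bases before and the first 50 bases from the start site (RefSeq promoters, GRCm38.p6, 300 bases each), and it was the only motif searched. Of the 38 members 29 had a promoter entry. Among the 9 cytosolic or dual genes with an entry that were higher in the gRNA group, 5 held a match (Aars, Iars, Tars, Yars and Gars). There was none in the 4 that were not called (Dars, Farsa, Farsb and Qars), the 14 mitochondrial genes or the scaffold genes Aimp1 and Aimp2. Over all 32851 promoters of this length 3.97% held a match. Eprs, Mars, Sars and Kars were higher and held no match, which says only that these letters are not in this window. Members without an entry were Cars, Hars, Lars, Nars, Rars, Vars, Wars, Hars2 and Pars2.

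The matches are shown with the 120 bases that end just before the start site for Aars, Tars and Gars, and with 30 bases around the match for Iars and Yars, where it begins 7 and 3 bases after the start site (the start site itself being position 0). Kars is set beside Gars because both serve 2 compartments and differed in their change. Capitals mark the element, which reads TTGCATCA or TTTCATCA where it lies on the other strand. The stretches are, in the gene's direction, for Aars chr8:111033722-111033841, plus strand; Tars chr15:11399659-11399778, minus strand; Gars chr6:55037881-55038000, plus strand; Kars chr8:112011355-112011474, minus strand; Iars chr13:49682126-49682155, plus strand; and Yars chr4:129189895-129189924, plus strand.
Aars: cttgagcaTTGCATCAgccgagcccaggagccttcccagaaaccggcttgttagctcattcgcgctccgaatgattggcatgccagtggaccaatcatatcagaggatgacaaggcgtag
Tars: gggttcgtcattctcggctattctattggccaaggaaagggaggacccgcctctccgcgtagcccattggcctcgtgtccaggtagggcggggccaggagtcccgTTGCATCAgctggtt
Gars: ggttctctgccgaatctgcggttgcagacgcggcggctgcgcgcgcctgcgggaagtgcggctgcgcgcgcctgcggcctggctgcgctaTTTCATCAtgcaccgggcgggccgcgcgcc
Kars: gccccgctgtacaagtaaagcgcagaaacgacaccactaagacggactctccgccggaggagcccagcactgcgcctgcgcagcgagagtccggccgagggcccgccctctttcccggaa
Iars: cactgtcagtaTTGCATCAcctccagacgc
Yars: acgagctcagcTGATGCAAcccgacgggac
Tars, Iars and Yars share the element TGATGCAA with the upstream match of Aars, which also has a match of TGATGAAA that begins 9 bases after its start site. The match in Gars is TGATGAAA and begins 30 bases before its start site. A match describes the sequence and is no evidence that a factor was bound.

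Depth and labels were checked over all genes. Total counts ranged from 5689335 to 13165662 per library. Ryr2 had 602 to 763 CPM (counts scaled to a common library size, with TMM factors) in the controls and 225 to 371 CPM in the gRNA libraries (log2 fold change -1.13, gRNA minus control, edgeR adjusted p = 3.3e-07; two-sided exact permutation p = 0.00058 over 3432 assignments, the smallest it can give). Control replicates 4 and 5 and gRNA replicates 4 and 5, with library indices 7 to 10 in the labels, are known from earlier results on these data to stand apart. Values within these 4 libraries and among the other 10 are therefore given for some genes, and genes without them may also differ. Heart muscle markers were abundant in every library. Over 10 genes they summed to 117062 to 136594 CPM in controls and 90796 to 120339 CPM in gRNA libraries. Of these genes 8 were lower in the gRNA group, Ryr2 among them. Beside this and the marker counts below, 13.7% of all genes tested were lower and 14.5% higher. Markers of other cells also differed between libraries. The 12 macrophage genes in the table summed to 24.7 to 118 CPM in controls and 61.2 to 443 CPM in gRNA libraries, highest in gRNA replicates 4 and 5 (443 and 283 CPM), and 3 of the 9 tested were higher. The 8 fibroblast genes summed to 187 to 603 CPM in controls and 162 to 1233 CPM in gRNA libraries, and none of the 7 tested was called over all 14 libraries. Within library indices 7 to 10 alone Col1a1, Col1a2, Col3a1, Dcn, Lum and Postn were higher, where 5.84% of all genes tested were. Pdgfra was not called there, and none of the 7 was called among the other 10 libraries. The 8 endothelial genes summed to 322 to 863 CPM in controls and 257 to 923 CPM in gRNA libraries, with none of 8 called over all 14. Vwf was higher within indices 7 to 10, and Cdh5, Kdr, Tie1 and Fabp4 were lower among the other 10 (11.6% of all genes tested). The 7 pericyte and smooth muscle genes summed to 386 to 551 CPM in controls and 299.7 to 545 CPM in gRNA libraries (2 higher and 1 lower of 7 tested). Of 7 erythroid genes, Hba-a1, Hba-a2, Hbb-b1 and Hbb-b2 were at 0, and the sum was 0.863 to 16.1 CPM in controls and 0.862 to 72.9 CPM in gRNA libraries. The part of these cells in the results below was not tested.

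Most cytosolic enzymes rose, and the mitochondrial enzymes fell or were not called. Of the 20 cytosolic and dual members 15 were higher in the gRNA group and none lower (edgeR quasi-likelihood test, BH-adjusted over 11170 genes), where 14.5% of all genes tested were higher. Their median log2 fold change was 0.84, against 0.014 over all genes tested. Of the 16 mitochondrial members 9 were lower and none higher, where 13.7% of all genes tested were lower, and their median was -0.21. In 13 of the 20 cytosolic and dual members every gRNA library lay above every control library (5.84% of all genes tested), and in 4 of the 16 mitochondrial members every gRNA library lay below (4.71%). In these bulk samples fewer cells of a type and less RNA per cell cannot be told apart. In the authors' deposited table the higher calls included 15 of the 20 cytosolic and dual members (12.4% of the 13515 genes with an adjusted p) and the lower calls 10 of the 16 mitochondrial members (12%), and neither scaffold gene passed.

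**Figure D1:**
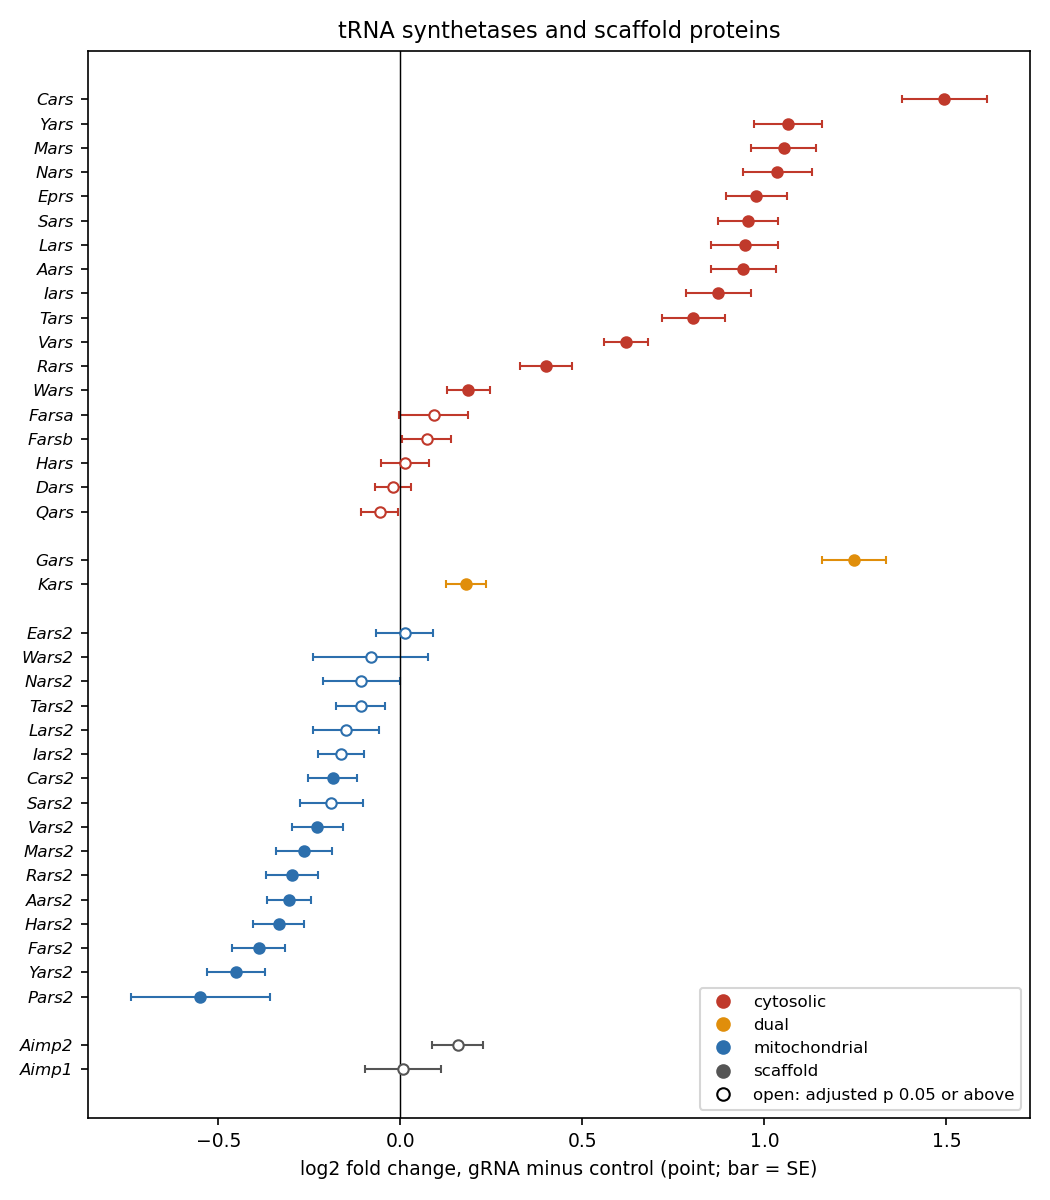
Log2 fold change (x axis, gRNA minus control) of each of the 38 members, with its SE as a bar, grouped by compartment. Filled points passed an adjusted p of 0.05 in the edgeR test, and open points did not. The cytosolic and dual members reach from -0.057 to 1.49, and the mitochondrial ones from -0.55 to 0.012.

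The largest rise was that of Cars, the cysteine enzyme (chromosome 7, 143557230 to 143600090, minus strand, mm10). It had 21.6 to 27.3 CPM in the control libraries, with a median of 26.0, and 51.0 to 85.4 CPM in the gRNA libraries, with a median of 75.3. A stretch of 214 bases of 1 of its annotated transcripts is identical to the processed pseudogene Gm15580, and how reads from it were assigned was not given. Every gRNA library thus held more than any control, and the level rose from 24.8 ± 2.27 to 69.8 ± 13.99 CPM (mean ± SD, n = 7; log2 1.49, SE 0.117, edgeR adjusted p = 1.2e-07). Gars, the glycine enzyme made for both compartments (chromosome 6, 55038001 to 55079504, plus strand), had 132 to 148 CPM in the control libraries, with a median of 135, and 261 to 409 CPM in the gRNA libraries, with a median of 315. It too did not overlap between the groups (log2 1.25, SE 0.0888, edgeR adjusted p = 4.2e-08). Both folds were smaller in the set of 4 libraries, but the calls stood there: Cars had 1.11 in indices 7 to 10 against 1.62 in the remaining 10 libraries, and Gars 1.08 in indices 7 to 10 against 1.29 in the remaining 10 libraries.

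Next in size were the enzymes for tyrosine, methionine, asparagine, glutamate with proline, and serine. Yars, for tyrosine, had 45.5 to 56.5 CPM in the control libraries, with a median of 50.3, and 76.1 to 121 CPM in the gRNA libraries, with a median of 115 (log2 1.06, SE 0.0930, edgeR adjusted p = 3.7e-07). Mars, for methionine, had 77.1 to 98.4 CPM in the control libraries, with a median of 88.0, and 148 to 219 CPM in the gRNA libraries, with a median of 192 (log2 1.05, SE 0.0892, edgeR adjusted p = 2.7e-07). Each of these 2 rose in all 7 gRNA libraries with no overlap. Mars shares 68 exonic bases with the stress gene Ddit3 on the opposite strand, and reads from that stretch cannot be told apart without strand. Nars, for asparagine, had 117 to 134 CPM in the control libraries, with a median of 122, and 189 to 328 CPM in the gRNA libraries, with a median of 249 (log2 1.04, SE 0.0953, edgeR adjusted p = 6.6e-07). Eprs, a single protein that charges both glutamate and proline, had 188 to 216 CPM in the control libraries, with a median of 196, and 286 to 451 CPM in the gRNA libraries, with a median of 414 (log2 0.98, SE 0.0840, edgeR adjusted p = 3.1e-07). In both genes the lowest gRNA library stood above the highest control. Sars, for serine, had 69.8 to 89.4 CPM in the control libraries, with a median of 84.2, and 135 to 192 CPM in the gRNA libraries, with a median of 158 (log2 0.96, SE 0.0826, edgeR adjusted p = 3.2e-07). Its control replicate 6 was the lowest of its group at 69.8 CPM, still with no overlap.

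The leucine, alanine, isoleucine, threonine and valine enzymes rose as well. Lars had 80.8 to 89.5 CPM in the control libraries, with a median of 87.3, and 128 to 198 CPM in the gRNA libraries, with a median of 167 (log2 0.95, SE 0.0925, edgeR adjusted p = 1.3e-06). Aars had 102 to 119.5 CPM in the control libraries, with a median of 113, and 165 to 250.3 CPM in the gRNA libraries, with a median of 229.7 (log2 0.94, SE 0.0893, edgeR adjusted p = 9.1e-07). The gRNA libraries of both genes lay above all controls, and the lowest were gRNA replicate 3 for Lars and gRNA replicate 4 for Aars. Aars shares 532 exonic bases with Exosc6, a subunit of the RNA exosome, on the same strand, so part of its count is uncertain. Iars had 105 to 124 CPM in the control libraries, with a median of 114, and 157 to 245 CPM in the gRNA libraries, with a median of 205 (log2 0.87, SE 0.0895, edgeR adjusted p = 2.3e-06). Its transcript matches a processed pseudogene, Gm4849, over 1656 bases at 96.0% identity, and how such reads were assigned was not given. Tars had 45.5 to 51.1 CPM in the control libraries, with a median of 47.6, and 65.2 to 98.8 CPM in the gRNA libraries, with a median of 87.7 (log2 0.80, SE 0.0860, edgeR adjusted p = 3.6e-06). Vars, for valine, rose less, with 60.1 to 66.3 CPM in the control libraries, with a median of 63.2, and 86.8 to 109 CPM in the gRNA libraries, with a median of 95.8 (log2 0.62, SE 0.0603, edgeR adjusted p = 1.2e-06), and again no overlap.

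**Figure D2:**
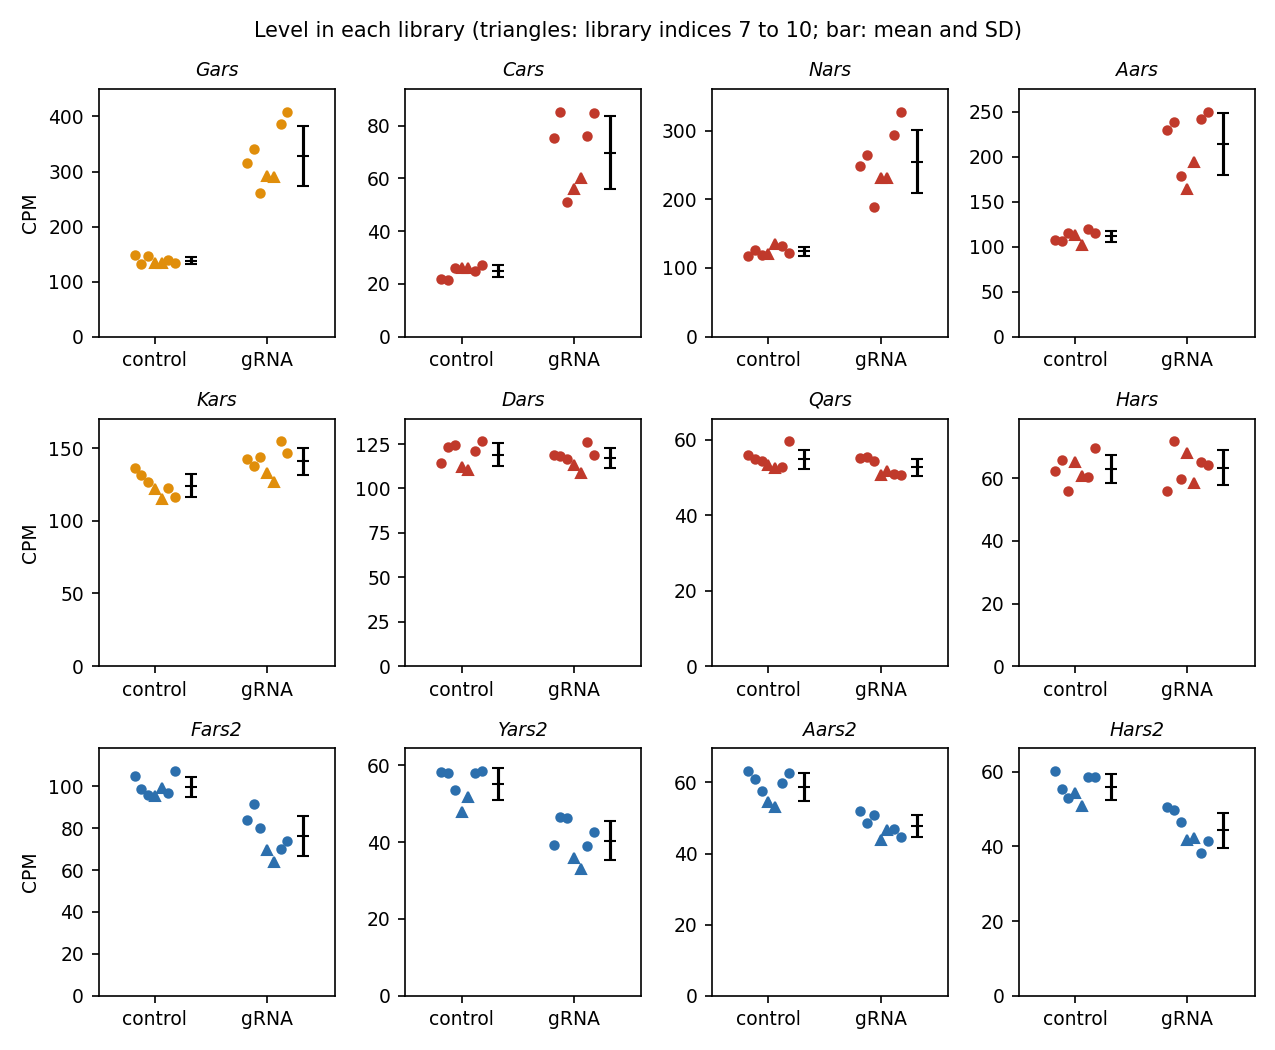
CPM (y axis, from 0) in each of the 7 control and 7 gRNA libraries for 12 members, with the mean and SD as a bar and triangles for library indices 7 to 10. The top row (Gars, Cars, Nars and Aars) has every gRNA library above every control, the middle row (Kars, Dars, Qars and Hars) overlaps, and the bottom row (Fars2, Yars2, Aars2 and Hars2) has every gRNA library below every control.

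The remaining called members of this set changed less. Rars, for arginine, rose from 50.1 ± 2.33 to 66.0 ± 7.67 CPM (mean ± SD, n = 7; log2 0.40, SE 0.0707, edgeR adjusted p = 4.3e-04) and did not overlap, but the log2 values were 0.23 in indices 7 to 10 against 0.45 in the remaining 10 libraries, and the call was lost within the 4 (edgeR adjusted p = 0.27). Wars, for tryptophan, had 62.3 to 78.5 CPM in the control libraries, with a median of 70.3, and 76.5 to 86.9 CPM in the gRNA libraries, with a median of 79.5. The groups overlapped, although all 7 gRNA libraries were above the control median (log2 0.19, SE 0.0580, edgeR adjusted p = 0.023), and the call was lost without control replicate 2 (edgeR adjusted p = 0.052), with indices 7 to 10 left out (0.20) and with these 4 alone (0.15). Kars, the lysine enzyme of both compartments (chromosome 8, 111993440 to 112011300, minus strand), had 115 to 136 CPM in the control libraries, with a median of 122, and 127 to 155 CPM in the gRNA libraries, with a median of 142. It overlapped too (log2 0.18, SE 0.0558, edgeR adjusted p = 0.023), and its call was lost without control replicate 7 or gRNA replicate 6 (edgeR adjusted p = 0.051 and 0.053), within indices 7 to 10 (0.64) and with no filter on low counts (0.054). The 2 enzymes that serve both compartments thus differed in size, at 2.37-fold for Gars and 1.13-fold for Kars; the difference itself was not tested.

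Cytosolic enzymes for aspartate, phenylalanine, histidine and glutamine were not called. Dars, for aspartate, had 111 to 127 CPM in the control libraries, with a median of 121, and 109 to 126 CPM in the gRNA libraries, with a median of 118 (log2 -0.020, SE 0.0499, edgeR adjusted p = 0.82). Qars, for glutamine, had 52.5 to 59.7 CPM in the control libraries, with a median of 54.6, and 50.6 to 55.5 CPM in the gRNA libraries, with a median of 51.8 (log2 -0.057, SE 0.05003, edgeR adjusted p = 0.44). The ranges of Dars nearly coincided, whereas for Qars the gRNA median lay just below the lowest control. Farsa and Farsb, which encode the alpha and beta subunits of the phenylalanine enzyme, had log2 fold changes of 0.091 and 0.072 (SE 0.0946 and 0.0670, edgeR adjusted p = 0.53 and 0.47). Their levels were 31.2 to 40.6 CPM in the control libraries, with a median of 35.3, and 30.3 to 47.9 CPM in the gRNA libraries, with a median of 37.7 for Farsa, and 91.8 to 106 CPM in the control libraries, with a median of 98.1, and 86.0 to 117 CPM in the gRNA libraries, with a median of 101 for Farsb. Hars, for histidine, had 55.8 to 69.6 CPM in the control libraries, with a median of 62.2, and 55.9 to 71.9 CPM in the gRNA libraries, with a median of 64.2 (log2 0.012, SE 0.0665, edgeR adjusted p = 0.92). All 5 overlapped between the groups.

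The cytosolic members were also split by lists taken from general knowledge. Class I enzymes, which share a nucleotide-binding fold of the Rossmann type, included 9 called of 10 (median 0.91), the exception being Qars. Class II enzymes, built on a different fold, included 6 called of 10 (median 0.49). Eprs, which charges both glutamate and proline, was counted in class I only. Over all genes tested 14.5% were higher. The 12 synthetase genes listed as reported targets of the amino acid response (Aars, Cars, Eprs, Gars, Iars, Lars, Mars, Nars, Sars, Tars, Wars and Yars) were all higher, with a median of 0.97. Of the other 8, Vars, Rars and Kars were higher. The list was drawn up with results of these data known and is not independent evidence.

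Genes of the multisynthetase complex were called in part. Of the 11 genes 6 were higher (Eprs, Mars, Lars, Iars, Rars and Kars) and none lower (median 0.18), where 14.5% of all genes tested were higher, while Dars and Qars and the scaffold genes Aimp1, Aimp2 and Eef1e1 were not called. Aimp1 had 35.0 to 51.8 CPM in the control libraries, with a median of 39.0, and 30.4 to 49.0 CPM in the gRNA libraries, with a median of 41.2 (log2 0.0068, SE 0.104, edgeR adjusted p = 0.97). Aimp2 had 47.2 to 50.1 CPM in the control libraries, with a median of 48.3, and 42.9 to 60.7 CPM in the gRNA libraries, with a median of 56.0 (log2 0.16, SE 0.0695, edgeR adjusted p = 0.10), and 6 of 7 gRNA libraries were above the control median. Aimp2 passed without gRNA replicate 5 (edgeR adjusted p = 0.014) and among the other 10 libraries (0.039). Eef1e1 stood at 18.1 ± 2.39 and 20.3 ± 3.05 CPM (SD, n = 7 each, log2 0.17, SE 0.108, edgeR adjusted p = 0.28). On a per-length scale (RPKM, CPM per kilobase of exon), the SD of log2 RNA level over the 11 genes was 0.52 to 0.60 in the control libraries and 0.56 to 0.73 in the gRNA libraries. The RNA levels were thus more unequal in 6 of the 7 gRNA libraries than in any control, and gRNA replicate 3 lay within the control range. Protein was not measured here.

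Among the mitochondrial enzymes the smallest p belonged to Yars2, for tyrosine (chromosome 16, 16302965 to 16309640, plus strand). It had 48.0 to 58.7 CPM in the control libraries, with a median of 58.0, and 33.0 to 46.5 CPM in the gRNA libraries, with a median of 39.1 (log2 -0.45, SE 0.0806, edgeR adjusted p = 4.6e-04), and every gRNA library was below every control. Fars2, for phenylalanine (chromosome 13, 36117411 to 36537593, plus strand), had 95.4 to 108 CPM in the control libraries, with a median of 98.9, and 63.9 to 91.5 CPM in the gRNA libraries, with a median of 74.0 (log2 -0.39, SE 0.0723, edgeR adjusted p = 6.5e-04). Aars2, for alanine, whose variants cause infantile cardiomyopathy, had 53.1 to 63.4 CPM in the control libraries, with a median of 59.8, and 43.7 to 52.1 CPM in the gRNA libraries, with a median of 47.0 (log2 -0.31, SE 0.0601, edgeR adjusted p = 0.0010). Each of the 3 genes fell in every gRNA library to below the lowest control. Hars2, for histidine, had 50.8 to 60.3 CPM in the control libraries, with a median of 55.4, and 38.2 to 50.5 CPM in the gRNA libraries, with a median of 42.3 (log2 -0.33, SE 0.0699, edgeR adjusted p = 0.0017). It did not overlap either. Fars2 and Yars2 were also called within library indices 7 to 10 alone, as the only 2 mitochondrial members (6.59% of all genes tested were lower there), where the log2 fold changes were -0.58 and -0.58. Among the other 10 libraries 7 of the 16 were lower (11.6% of all genes tested).

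The remaining 5 called mitochondrial members overlapped between the groups. They were Rars2 (-0.30, edgeR adjusted p = 0.0044), Mars2 (-0.27, 0.016), Vars2 (-0.23, 0.023), Pars2 (-0.55, 0.040) and Cars2 (-0.19, 0.047), for arginine, methionine, valine, proline and cysteine, each below the control median in 7 of 7 gRNA libraries. Apart from Rars2, these calls were lost in 1 or more alternatives that keep at least 5 libraries a group. Vars2 lost its call without control replicate 1 or gRNA replicate 4 (edgeR adjusted p = 0.057 and 0.055), and Mars2 among the other 10 libraries (0.051). Cars2 lost it without control replicate 1, 2, 3, 6 or 7 or gRNA replicate 3, 4, 5, 6 or 7 (edgeR adjusted p = 0.056 to 0.10), and with no filter on low counts (0.091). Pars2, the least read member, lost it without control replicate 2, 3, 4, 6 or 7 or gRNA replicate 5, 6 or 7 (0.0502 to 0.078), among the other 10 libraries (0.078) and with no filter (0.057). It ranged from 8.68 to 11.2 CPM in controls and from 2.69 to 9.16 CPM in gRNA libraries.

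The other 7 mitochondrial members, Sars2, Iars2, Lars2, Tars2, Nars2, Wars2 and Ears2, did not pass, with log2 fold changes from -0.19 (Sars2, edgeR adjusted p = 0.11) to 0.012 (Ears2, 0.94). Iars2, for isoleucine, was closest (log2 -0.16, SE 0.0639, edgeR adjusted p = 0.068) and passed without gRNA replicate 1 or 2 (edgeR adjusted p = 0.0497 and 0.012), with a term for library indices 7 to 10 (0.038) and in DESeq2 (adjusted p = 0.048). Lars2, for leucine, had 3371 to 4778 CPM in the control libraries, with a median of 4309, and 3287 to 4648 CPM in the gRNA libraries, with a median of 3774 (log2 -0.15, SE 0.0910, edgeR adjusted p = 0.24). Its level per length, 1071 ± 134 RPKM in controls (SD, n = 7), was 22.8 times that of the next mitochondrial member, Iars2. The annotated Lars2 transcript (GENCODE M21) of 3894 bases holds 72 bases (3278 to 3349) at 98.6% identity with a transcript of the antisense gene Gm15564, which has no row in the count table. By the exons of the count table, short stretches are also shared with neighbouring genes by Iars2 (85 bases, Rab3gap2), Yars (30, C77080) and Aimp2 (14, Eif2ak1). Some GENCODE M21 transcripts share longer identical stretches: Iars2 with Rab3gap2 (2034 bases), Aars with Exosc6 (1326) and Aimp2 with Eif2ak1 (488). Others are Nars2 with C230038L03Rik (284), Farsb with Sgpp2 (250) and Cars2 with Naxd (217). How reads from these stretches were assigned was not given. What share of the Lars2 reads came from the stretch it shares was not tested, and Lars2 was left out of the sums below.

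Levels between genes were compared per length. In controls the 20 cytosolic and dual members ranged from 7.71 ± 0.704 RPKM for Cars to 57.8 ± 2.82 for Gars (SD, n = 7), with Kars (57.1 ± 3.54) beside Gars, and Dars (47.4 ± 2.58), Nars (47.0 ± 2.46) and Farsb (46.2 ± 2.60) next, none of which differed from its neighbour beyond the SD except between Kars and Dars. In the gRNA group Gars (137 ± 22.7), Nars (96.3 ± 17.2) and Eprs (81.0 ± 11.8) led, and Qars (19.4 ± 0.790), Farsa (20.9 ± 3.13) and Cars (21.7 ± 4.34) stood lowest. Cars, the lowest of all in controls, thus came to the level of Qars and Farsa. The 15 mitochondrial members without Lars2 ranged from 2.20 ± 0.440 (Wars2) to 47.0 ± 2.32 RPKM (Iars2) in controls, with a median of 17.6 against 24.0 for the cytosolic and dual members. In the gRNA group the medians were 14.2 and 43.7 RPKM.

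The contrast was also read within single amino acids. The log2 ratio per length of the cytosolic over the mitochondrial enzyme was taken in each library for 16 pairs, Eprs serving for both glutamate and proline. In 13 of the 16 every gRNA library had a higher ratio than any control. In each of these pairs the cytosolic enzyme alone already had every gRNA library above every control. The count thus largely restates that result and is not separate evidence. No share of such ratios over all genes was taken. Both enzymes were called in 7 of the 16 pairs. In the pairs for glutamate, isoleucine, leucine, asparagine, serine, threonine and tryptophan only the cytosolic enzyme was called. For tyrosine (Yars over Yars2) the ratio was -1.11 to -0.88 in the controls and 0.23 to 0.77 in the gRNA libraries, so the order of the 2 enzymes turned. For isoleucine (Iars over Iars2) it was -0.96 to -0.68 in the controls and -0.20 to 0.46 in the gRNA libraries. For cysteine (Cars over Cars2) it was -2.35 to -1.74 in the controls and -0.80 to -0.027 in the gRNA libraries, the widest shift (1.65 between the group means), and Cars stayed below Cars2. The 3 pairs that overlapped were those for phenylalanine (Farsa over Fars2), histidine and tryptophan. Median ratios were below 0 in 6 pairs in controls and in 3 in the gRNA group, or 5 and 2 without the leucine pair, whose direction rests on the uncertain Lars2 count.

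**Figure D3:**
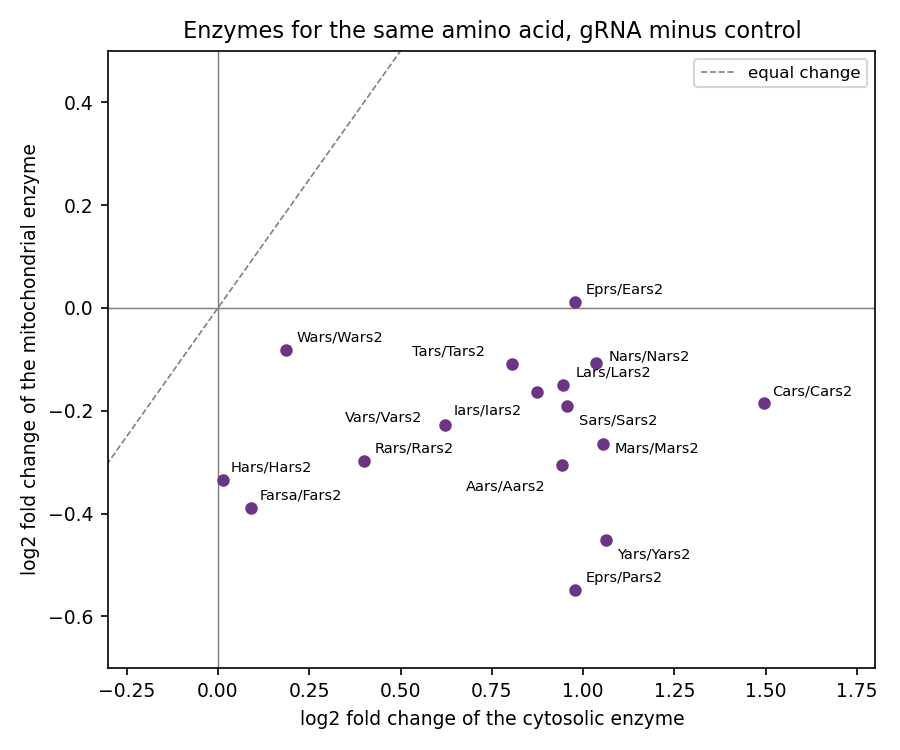
Log2 fold change (gRNA minus control) of the cytosolic enzyme (x axis) against that of the mitochondrial enzyme (y axis) for 16 pairs that charge the same amino acid, with a dashed line for equal change. All 16 points lie below the line; Yars and Cars stand far to the right with Yars2 and Cars2 below 0, and Hars and Farsa stand near 0 on the x axis.

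The histidine enzymes are neighbours. Hars and Hars2 lie head to head on chromosome 18, their annotated starts 75 bases apart on opposite strands. Hars was not called (log2 0.012) and Hars2 was lower (-0.33). Their ratio was 0.67 to 0.89 in the controls and 0.77 to 1.39 in the gRNA libraries, and the ranges overlapped.

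The per-library medians separated the groups in both sets. Taking for each library the median over members of the log2 ratio to the control mean, the 20 cytosolic and dual members gave -0.041 to 0.083 in controls and 0.49 to 1.03 in gRNA libraries (median 0.88). The lowest gRNA values were those of replicates 3 (0.49) and 4 (0.56), the highest that of replicate 6 (1.03). The 16 mitochondrial members gave -0.12 to 0.094 in controls and -0.39 to -0.13 in gRNA libraries (median -0.22). Here control replicates 4 and 5 were the lowest controls and gRNA replicates 4 and 5 the lowest of the gRNA group, so library indices 7 to 10 were low in both groups. The summed level per length of the cytosolic and dual set was 1.92 to 2.10 times that of the mitochondrial set without Lars2 in controls, and 3.17 to 4.51 times in gRNA libraries. Macrophage marker sums in gRNA replicates 1 to 7 were 73.7, 95.7, 86.5, 443, 283, 83.7 and 61.2 CPM. In the same order the cytosolic medians were 0.96, 0.97, 0.49, 0.56, 0.78, 1.03 and 0.88. The mitochondrial medians were -0.13, -0.13, -0.21, -0.39, -0.32, -0.30 and -0.22. The part of macrophage RNA in these medians was not tested.

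**Figure D4:**
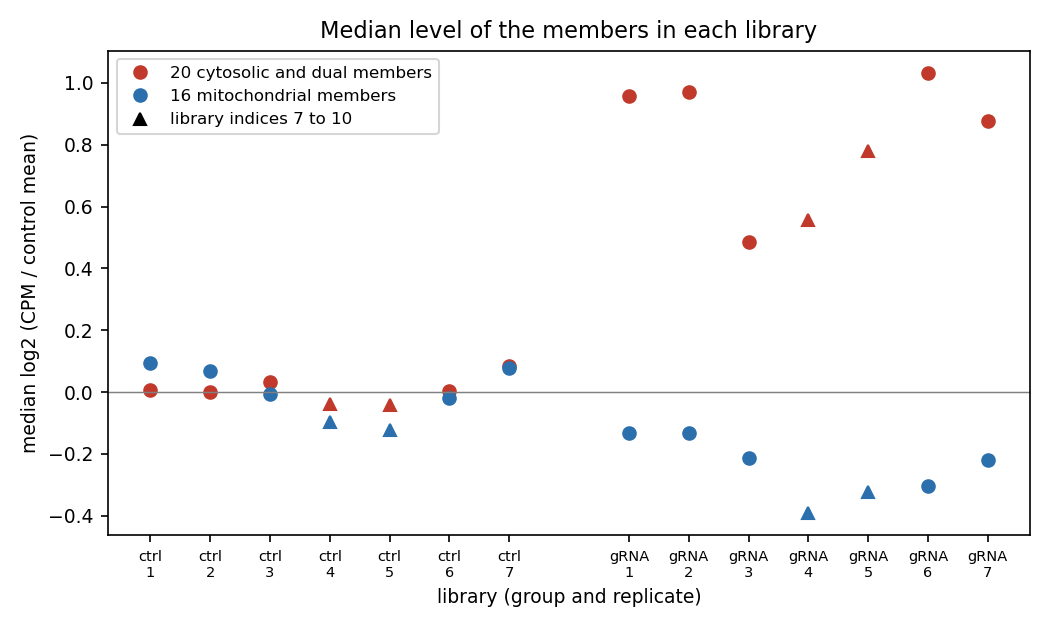
Median over members of log2 (CPM / control mean) (y axis) in each library (x axis), in red for the 20 cytosolic and dual members and in blue for the 16 mitochondrial ones, with triangles for library indices 7 to 10. The red points of the gRNA libraries lie between 0.49 and 1.03, and the blue ones between -0.39 and -0.13.

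Within library indices 7 to 10 alone (2 of each group) 12 of the 20 cytosolic and dual members were higher (5.84% of all genes tested), and among the other 10 libraries 14 were (12.5%). An interaction of group with library set was called for 0 of 11170 genes (edgeR quasi-likelihood test, 0% called; 339 genes at an unadjusted p under 0.05, none of them a member). The smaller folds in that set are thus not shown to differ from those of the other libraries.

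Other genes of tRNA charging were read from lists drawn up from general knowledge. Of 5 tested partners that deliver or finish tRNAs, Xpot, the exporter of tRNA from the nucleus, rose from 58.0 ± 5.69 to 95.6 ± 13.5 CPM (mean ± SD, n = 7; log2 0.72, SE 0.0916, edgeR adjusted p = 2.0e-05) with no overlap, and Tarsl2, a second cytosolic threonine enzyme, was lower (log2 -0.22, SE 0.0777, edgeR adjusted p = 0.048). Of 4 genes that edit or hydrolyse mischarged or stalled tRNA, Dtd1, a D-aminoacyl-tRNA deacylase, was higher (log2 0.25, SE 0.0628, edgeR adjusted p = 0.0060), and Aarsd1, an alanyl editing factor, was lower (log2 -0.43, SE 0.0772, edgeR adjusted p = 4.9e-04). Both were without overlap between the groups. Over all genes tested 14.5% were higher and 13.7% lower, and 5.84% and 4.71% were higher and lower without overlap. With so few genes tested, these counts are not read as a result about either list.

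Of 6 tested genes for charging by other routes 2 were lower and none higher, where 13.7% of all genes tested were lower. They were Qrsl1 (log2 -0.43, SE 0.0932, edgeR adjusted p = 0.0024), a subunit of the amidotransferase that makes mitochondrial glutaminyl-tRNA, and Pstk (log2 -0.32, SE 0.0978, edgeR adjusted p = 0.022), a kinase of the selenocysteine route. Of 11 mitochondrial translation factors 8 were lower and none higher (median -0.32), where 13.7% of all genes tested were lower. The elongation factor Tufm fell from 195 ± 15.97 to 143 ± 12.7 CPM (mean ± SD, n = 7; log2 -0.45, SE 0.0661, edgeR adjusted p = 8.5e-05), and Mtif2, an initiation factor, Gfm1, a translocase, and Gfm2, a ribosome recycling factor, had log2 fold changes of -0.43, -0.31 and -0.32 (edgeR adjusted p = 1.7e-04, 6.1e-04 and 0.0017). Tufm, Mtif2 and Gfm1 did not overlap between the groups. Of 14 genes of tRNA processing and modification 2 were lower (Trmt5 and Hsd17b10, -0.44 and -0.36) and 2 higher (Qtrtd1 and Pus1, 0.46 and 0.28), with a median of 0.062, beside 13.7% lower and 14.5% higher over all genes tested, so the list stood near the background.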

How the data were processed

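Poly(A) RNA of 14 samples (7 a group) was sequenced. Per the submitters' processing notes, the authors used STAR, featureCounts, DESeq2 and DESeq with genome build mm10; versions, annotation and strand setting are not stated in the labels. The deposited gene table gives raw read counts, as whole numbers, with exon positions and lengths. The authors' deposited comparison gives, per the file headers, a mean signal (counts over size factors), log2 fold changes, a Wald score and p-values; it was used only where named.

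Counts were tested in edgeR 4.0.16 under R 4.3.3 by a two-sided quasi-likelihood F test, with filterByExpr, TMM scaling, no covariates and Benjamini-Hochberg (BH) adjustment over 11170 genes; a call is an adjusted p under 0.05. The fit was tested on simulated data. CPM and RPKM were computed from the counts with TMM-scaled sizes; RPKM replaced the planned TPM for levels between genes, since TPM is not TMM-scaled. DESeq2 1.42.0 was an alternative. Replicates of a group differed by more than counting noise (chi-square per degree of freedom at least 4.58). All 38 members are accounted for: full values go to called members with the 12 largest absolute changes, Gars, Kars, Aimp1, Aimp2, cytosolic members not called, and the 4 mitochondrial members with the smallest p, with Ryr2 and up to 4 called genes of each list. Rars, Wars, Pars2, Iars2, Lars2 and Eef1e1 were added after their values were seen. Members and lists were chosen with earlier results of these data known.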

Additional observations from a re-analysis of the deposited data

Results flagged for a closer look

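Group values were checked for a single library far from the rest of its group, in 78 groups of 7 (38 members and Ryr2, control and gRNA). By chance about 1 in 20 such groups would be picked out. There were 4. For Sars, control replicate 6 held 69.8 CPM, against 81.8 to 89.4 CPM in the other 6 controls. For Lars, control replicate 7 held 80.8 CPM, against 85.9 to 89.5 CPM. For Aimp1, control replicate 7 held 51.8 CPM, against 35.0 to 42.1 CPM in the other controls. For Lars2, gRNA replicate 7 held 4648 CPM, against 3287 to 3860.2 CPM in the other gRNA libraries. None of the 4 genes changed its call when that library was left out.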

How the results depend on the processing

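The 21 alternatives were other scaling, DESeq2, no filter, a replicate block, a term for library indices 7 to 10, either library set alone, and each library left out. The count of cytosolic and dual members that were higher stayed at 12 to 15 of 20, where 5.84% to 17.2% of all genes tested were higher. With 1 library left out it was 14 to 15 (12.7% to 14.8% of all genes tested). The count of lower mitochondrial members was 7 to 10 of 16, except for 2 within library indices 7 to 10, where 2 libraries a group were fitted. The share of all genes tested that were lower was 6.59% within these indices and at most 16.5% elsewhere. With 1 library left out the count was 7 to 10, beside 11.5% to 13.6% of all genes tested. With the replicate number as a replicate block, 15 cytosolic and dual members were higher and 10 mitochondrial ones lower. The calls of all genes then numbered 1922 higher (17.2%) and 1848 lower (16.5%). Iars2 was the member that gained a call under the block (edgeR adjusted p = 0.026). The numbers do not pair the samples by label, and deviations of same-numbered samples correlated at 0.061 to 0.53, with 2 of 7 gRNA samples correlating best with their own number. Of 798 member values under these alternatives 727 kept direction and call, 39 lost a call, 7 gained one and 25 changed sign, all of the last in members that were not called. Within indices 7 to 10 the values that changed sign were -0.021 (Farsb), -0.041 (Hars), -0.026 (Ears2), 0.16 (Wars2), -0.29 (Aimp1) and -0.058 (Aimp2). With DESeq2 they were -0.0023 (Ears2) and -0.0029 (Aimp1), and for Aimp1 -0.0024 with the replicate block and -0.0019 with the library term. With 1 library left out the log2 fold change ranged over -0.048 to 0.073 for Aimp1, -0.033 to 0.043 for Ears2, -0.021 to 0.040 for Hars and -0.039 to 5.2e-05 for Dars. The cause was not tested. Depth limited Pars2 most, with 17 reads in its lowest library.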
